A study of Mus musculus with 10 samples.

Results

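The genes described here were 10 that encode the main inflammatory cytokines of microglia and the core of the NLRP3 inflammasome, namely Tnf, Il1a, Il1b, Il1rn, Il6, Il10, Il18, Nlrp3, Casp1 and Pycard. They were found by symbol in the RefSeq gene table, among 46152 genes counted in all. Of the 10, 9 had counts in at least 1 library and all 9 passed the filter of more than 1 CPM (counts scaled to a common library size) in at least 3 libraries, which kept 28419 genes. The remaining gene, Tnf, had 0 counts in all 10 libraries. RNA was sequenced from microglia of 10 adult C57BL/6J mice, 5 gavaged with vehicle (Tween 80 and hydroxymethyl propyl-cellulose) and 5 with GW2580 in that vehicle at 80 mg/kg/d, both for 8 days. GW2580 is an oral inhibitor of CSF1R, the receptor kinase on which microglia depend. Each group held 2 male mice (replicates 1 and 2) and 3 female mice (replicates 3 to 5), and each mouse gave 1 library. The cells were isolated from enzymatically digested whole brain by Percoll gradient and CD11b magnetic selection, which also retains other myeloid cells.

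IL-1α and IL-1β both signal through the IL-1 receptor, and the IL-1 receptor antagonist encoded by Il1rn occupies that receptor without activating it. IL-1β and IL-18 are made as inactive precursors that caspase-1 cleaves, and caspase-1 is itself activated on the inflammasome, in which the sensor NLRP3 recruits it through the adaptor ASC, the product of Pycard. TNF and IL-6 are released by activated microglia, and IL-10 restrains their production.

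Promoter sequences were taken from RefSeq (GRCm38.p6) for 9 of the 10 genes, which had 12 start sites between them, and the 250 bases before each start were searched on both strands. A TATAAA element, held by 12.4% of 32851 promoters, began 29 bases before the start of Tnf, 32 before that of Il1a and 31 before that of Il1b, and lay on the other strand 175 bases before that of Il18. The NF-kB motif, held by 5% of promoters, was found 44 bases before the start of Il6 and 186 bases before 1 of the 2 starts of Nlrp3. The AP-1 element TGAGTCA (4.46% of promoters) was found before Il1a, Il6 and 1 of the 3 starts of Il1rn, and the PU.1 core GAGGAA (23.3%) before Tnf, Il1a, Casp1, Pycard and the other start of Nlrp3. Of the C/EBP forms, TTGCNNAA was in 2 of the 12 windows (9.56% of promoters) and TTNNGNAA in 9 (36.8%). The ISRE motif (0.146%), the GAS element TTCNNNGAA (7.02%) and the cAMP response element TGACGTCA (1.55%) were in 0 of the 12. The windows of 5 genes are given 5′ to 3′ on the strand of the gene with the TATA, NF-kB, AP-1 and PU.1 matches of either strand in capitals. They are those of Il1b (chr2:129371165-129371389, minus strand) and the outermost start of Il1rn (chr2:24336610-24336859, plus strand), which had the largest differences between male and female mice, of Il18 (chr9:50554450-50554699, plus strand) and Pycard (chr7:127993868-127994117, minus strand), which had the largest differences between treatments, and of Il6 (chr5:30012864-30013113, plus strand), the window that held both the NF-kB and the AP-1 element. That of Il1b stops 25 bases before the start, where a longer transcript begins. In the window of Il1a, 214 of the 250 bases lay in an exon listed for Il1a. The TATA, AP-1 and PU.1 matches of Il1a fell in that stretch. These are matches of letters only.
Il1b: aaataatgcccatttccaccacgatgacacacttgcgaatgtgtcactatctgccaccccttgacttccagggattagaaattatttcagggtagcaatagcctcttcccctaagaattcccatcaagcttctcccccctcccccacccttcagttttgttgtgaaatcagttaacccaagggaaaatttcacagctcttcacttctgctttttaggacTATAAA
Il1rn: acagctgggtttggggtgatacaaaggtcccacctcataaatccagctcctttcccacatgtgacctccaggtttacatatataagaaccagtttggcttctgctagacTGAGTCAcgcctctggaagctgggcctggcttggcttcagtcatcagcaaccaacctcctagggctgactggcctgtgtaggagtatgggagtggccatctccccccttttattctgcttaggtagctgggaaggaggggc
Il6: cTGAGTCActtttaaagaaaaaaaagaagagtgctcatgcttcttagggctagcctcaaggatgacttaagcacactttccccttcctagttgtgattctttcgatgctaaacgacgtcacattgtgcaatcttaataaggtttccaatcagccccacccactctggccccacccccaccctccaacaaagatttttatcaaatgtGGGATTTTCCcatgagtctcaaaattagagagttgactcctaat
Il18: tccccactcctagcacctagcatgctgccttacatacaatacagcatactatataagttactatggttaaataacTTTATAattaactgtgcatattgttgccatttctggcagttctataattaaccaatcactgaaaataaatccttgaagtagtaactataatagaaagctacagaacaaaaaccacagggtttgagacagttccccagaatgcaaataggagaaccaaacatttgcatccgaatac
Pycard: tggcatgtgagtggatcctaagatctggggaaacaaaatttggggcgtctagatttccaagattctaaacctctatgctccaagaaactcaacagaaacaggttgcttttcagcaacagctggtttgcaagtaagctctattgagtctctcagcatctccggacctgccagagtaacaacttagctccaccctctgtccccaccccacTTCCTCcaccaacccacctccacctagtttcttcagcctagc

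Fragments counted on genes ranged from 12550418 to 26079343 per library. Microglia markers were abundant in all libraries, with Cx3cr1 at 2129 to 3113 CPM with vehicle and 2582 to 10938 CPM with GW2580. Of 11 microglia markers tested, 10 had a log2 fold change above 0, with a median of 0.49, and 2 were called higher, Cx3cr1 (1.14, edgeR adjusted p = 0.298) and Csf1r (1.28, adjusted p = 0.318). Markers of other cells were present too, and all 8 astrocyte and all 8 oligodendrocyte markers tested were below 0, of which 2 and 4 were called lower. The 16 monocyte and granulocyte markers summed to 1301 to 30337 CPM with vehicle (highest in Vehicle 1, lowest in Vehicle 5) and 1893 to 15791 CPM with GW2580, none of them at 0 in all libraries. The 9 oligodendrocyte markers summed to 164 to 17967 CPM with vehicle, led by Vehicle 2 and then by Vehicle 5 at 4424 CPM, and to 179.6 to 1798 CPM with GW2580, where GW2580 4 was highest. The median of this sum was 338 CPM with vehicle and 601 CPM with GW2580. The 8 astrocyte markers also summed highest in Vehicle 2 (3310 CPM) and Vehicle 5 (1233 CPM). Their median sum was 240 CPM with vehicle and 209 CPM with GW2580. At an adjusted p below 0.05, edgeR's quasi-likelihood test called 0 of 28419 genes, whereas 4186 genes (14.7%) had an unadjusted p below 0.05. The study's thresholds, more than 2-fold with an unadjusted p below 0.05, were therefore used to call genes, and 10.7% of all genes tested met them (4.01% higher and 6.7% lower with GW2580).

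None of the 9 cytokine and inflammasome genes tested was called, against 10.7% of all genes. Of these genes, 4 were above and 5 below a log2 fold change of 0, and their median log2 fold change was -0.06, beside -0.03 over all genes tested. By the unadjusted edgeR p, 0 of the 9 were below 0.05, and limma-voom and DESeq2 also called 0 of them, against 10.6% and 11.4% of all genes. None of the 9 separated the groups without overlap, which 3.03% of all genes did. The differences that came closest were those of Il18 and Pycard, both lower with GW2580. Values that follow are CPM scaled by the TMM method, in the order Vehicle 1 to 5 and GW2580 1 to 5. A lower value in such bulk libraries can mean fewer cells that express a gene or less of its RNA per cell, and these cannot be told apart.

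Tnf (chr17:35199367-35202007, GRCm38) had 0 counts in each of the 10 libraries, so it gave no level, fold change or test. This 0 cannot be read as absence of the transcript. In the deposited counts the exons of Tnf are listed on 4 sequences, chromosome 17 and 3 alternate copies of the locus, with a summed length of 6612 bases, and fragments that aligned to more than 1 place were not counted. Among protein-coding genes whose exons are listed on more than 1 sequence, 289 of 1117 (25.9%) had 0 counts in all libraries, compared with 371 of 20748 (1.79%) of those listed on 1 sequence. The other 9 members are each listed on 1 sequence. Of these, 3 share exon bases with a gene on the opposite strand, 222 of 3523 for Il1a (Gm14023), 20 of 1914 for Il1b (Il1bos) and 93 of 1707 for Il18 (Tex12), and since strand was not used in counting, reads of both genes could not be told apart there. The microglial gene Aif1 and the lymphotoxin gene Ltb also had 0 counts in all 10 libraries. The sequences on which their exons are listed are not given here.

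Il1a, which encodes a form of IL-1 that is active without cleavage, was measured at 223, 170, 176, 121 and 63.0 CPM with vehicle and at 258, 236, 386, 90.8 and 144 CPM with GW2580. GW2580 1, 2 and 3 lay above every vehicle library, while GW2580 4 and 5 lay within the vehicle range. The mean was 151 ± 61.0 CPM after vehicle and 223 ± 114 CPM after GW2580 (SD, n = 5 each), a log2 fold change of 0.57 ± 0.44 (SE, edgeR p = 0.217, adjusted p = 0.549, exact permutation p = 0.317). The 95% interval ran from 0.772-fold to 2.84-fold of vehicle, a range that includes a doubling.

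Il1b, the precursor that caspase-1 cleaves, had the widest spread of the cytokines, with 514, 167, 118, 102 and 38.4 CPM after vehicle and 117, 292, 159, 37.4 and 84.0 CPM after GW2580. Vehicle 1 stood far above the other vehicle libraries, and the remaining vehicle libraries lay inside the GW2580 range. The means were 188 ± 188 and 138 ± 97.0 CPM (SD, n = 5 each), with a log2 fold change of -0.45 ± 0.64 (SE, edgeR p = 0.495, adjusted p = 0.759, exact permutation p = 0.730) and an interval from 0.283-fold to 1.90-fold. Without Vehicle 1 the value was 0.36 (edgeR adjusted p = 0.813), the opposite direction.

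Il1rn, the receptor antagonist, was low throughout, at 20.2, 11.8, 6.43, 5.45 and 3.99 CPM with vehicle and 18.9, 23.3, 11.0, 7.67 and 5.42 CPM with GW2580. In both groups the highest values were those of the 2 male mice. The log2 fold change was 0.47 ± 0.49 (SE, edgeR p = 0.357, adjusted p = 0.665, exact permutation p = 0.373), with 9.58 ± 6.64 CPM for vehicle and 13.3 ± 7.59 CPM for GW2580 (SD, n = 5 each).

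Il18, the second cytokine matured by caspase-1, was counted at 42.5, 64.7, 57.5, 55.6 and 17.8 CPM in vehicle mice and at 17.1, 31.6, 36.2, 10.04 and 39.3 CPM in GW2580 mice. Every GW2580 library was below the 4 highest vehicle libraries, and Vehicle 5 fell among the GW2580 values, so the groups overlapped through that library alone. The means were 47.6 ± 18.5 and 26.9 ± 12.7 CPM (SD, n = 5 each), a log2 fold change of -0.83 ± 0.43 (SE, edgeR p = 0.0738, adjusted p = 0.377, exact permutation p = 0.135). Il18 passed the call without Vehicle 5 (log2 fold change -1.04, edgeR adjusted p = 0.167) and without GW2580 5 (-1.10, adjusted p = 0.185), when 12.9% and 17.6% of all genes were called.

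Il6, a pro-inflammatory cytokine, was between 5.63 and 10.05 CPM with vehicle and between 4.69 and 9.88 CPM with GW2580, and Il10, a suppressive one, between 3.93 and 4.94 CPM and between 2.64 and 6.06 CPM. These rested on 39 to 175 fragments per library. For Il6 the log2 fold change was -0.06 ± 0.29 (SE, edgeR p = 0.836, adjusted p = 0.937, exact permutation p = 0.667, interval 0.624-fold to 1.47-fold). For Il10 it was 0.03 ± 0.29 (SE, edgeR p = 0.910, adjusted p = 0.967, exact permutation p = 0.960, interval 0.661-fold to 1.58-fold). These were the narrowest intervals of the 9, and neither reached a doubling or a fall to 0.5-fold.

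**Figure D1:**
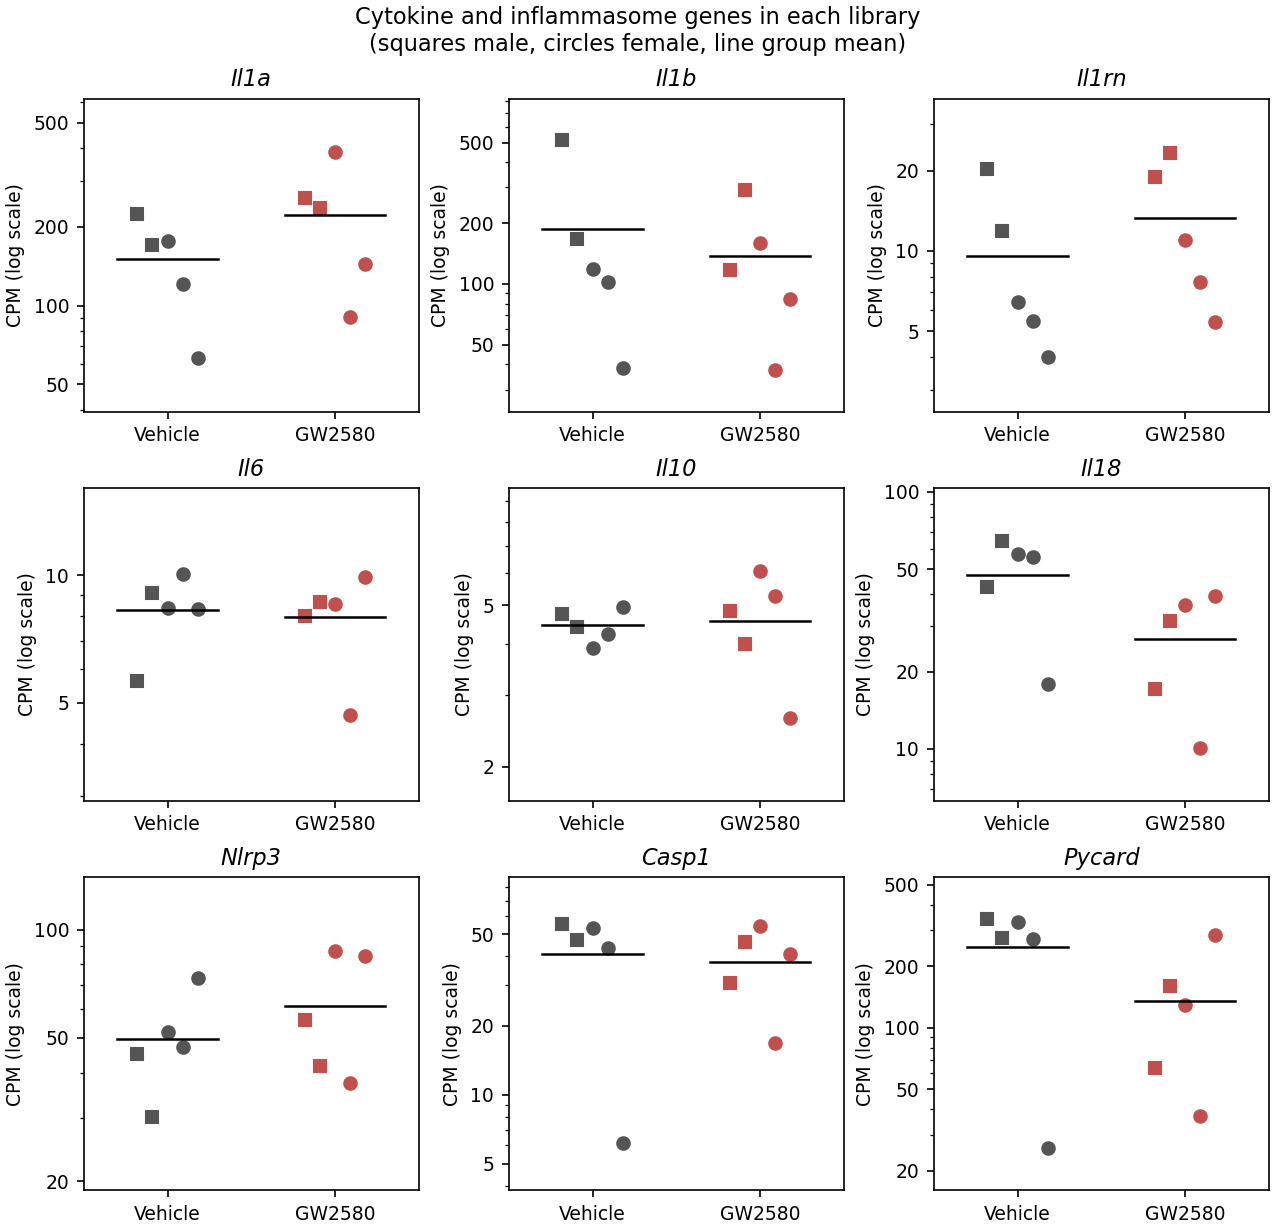
CPM of each of the 9 genes tested on a log axis, 1 point per library, grey for vehicle and red for GW2580, squares for male and circles for female mice, with a line at each group mean (n = 5). Il18 and Pycard were lower in most GW2580 libraries while Vehicle 5 lay low, at 17.8 and 25.7 CPM, and both male values of Il1rn lay above all female values of their group.

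Of the inflammasome genes, the sensor Nlrp3 was measured at 45.0, 30.2, 52.0, 47.3 and 73.1 CPM with vehicle and at 56.1, 41.7, 87.2, 37.6 and 84.4 CPM with GW2580. GW2580 3 and 5 lay above the vehicle range and the other 3 within it. The log2 fold change was 0.31 ± 0.35 (SE, edgeR p = 0.387, adjusted p = 0.687, exact permutation p = 0.429), and the interval ran from 0.741-fold to 2.07-fold.

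Casp1, the protease, was at 55.3, 47.3, 53.4, 43.5 and 6.12 CPM with vehicle and at 30.6, 46.4, 54.3, 16.8 and 41.1 CPM with GW2580. Vehicle 1 to 4 lay between 43.5 and 55.3 CPM, and Vehicle 5, with 109 fragments, was below all other libraries. The log2 fold change was -0.12 ± 0.49 (SE, edgeR p = 0.810, adjusted p = 0.926), while the difference of mean log2 CPM was 0.10 (exact permutation p = 0.937), so its direction was not determined.

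Pycard, the adaptor, gave 340, 276, 329, 271 and 25.7 CPM with vehicle and 63.6, 161, 129, 37.0 and 283 CPM with GW2580. Again 4 vehicle libraries were close together, 4 GW2580 libraries were below them, GW2580 5 lay within the vehicle range, and Vehicle 5 was below every other library. The means were 248 ± 128 and 135 ± 96.5 CPM (SD, n = 5 each), with a log2 fold change of -0.88 ± 0.63 (SE, edgeR p = 0.179, adjusted p = 0.510, exact permutation p = 0.381). The interval from 0.214-fold to 1.37-fold was the widest among the inflammasome genes. Pycard was called without Vehicle 5 (-1.18, edgeR adjusted p = 0.185), without GW2580 5 (-1.44, adjusted p = 0.212), and without Vehicle 2 and 5, the libraries richest in oligodendrocyte markers (-1.23, adjusted p = 0.351), a combination chosen after the values were seen, in which 8.5% of all genes were called.

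**Figure D2:**
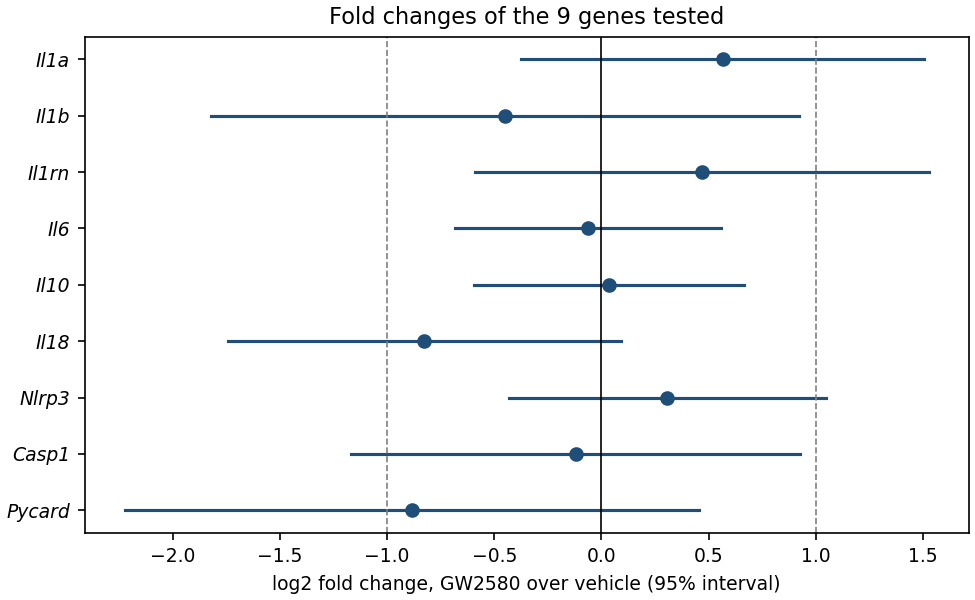
Log2 fold change of GW2580 over vehicle for each gene tested, with the 95% interval of edgeR's quasi-likelihood fit (n = 5 against 5) and dashed lines at a 2-fold change. All 9 intervals cross 0, and the lowest fold changes are those of Pycard (-0.88) and Il18 (-0.83).

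Vehicle 5 was the lowest vehicle library for 6 of the 9 genes (Il1a, Il1b, Il1rn, Il18, Casp1 and Pycard) and the highest for Il10 and Nlrp3. GW2580 4 was the lowest GW2580 library for 7 of the 9 in TMM-scaled CPM. It had the highest TMM factor of all libraries, 1.608, which lowered its scaled values. Vehicle 5 followed Vehicle 2 in the oligodendrocyte sum, and GW2580 4 led the GW2580 libraries in it. The part of these cells and of the scaling in the low values was not tested.

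Per base of exon, as RPKM computed from the counts, the order of levels with vehicle was Pycard (116 ± 60.1), Il1b (98.2 ± 98.3), Il1a (42.7 ± 17.3), Il18 (27.9 ± 10.8), Casp1 (27.2 ± 13.3), Nlrp3 (11.5 ± 3.60), Il6 (7.26 ± 1.44), Il10 (3.41 ± 0.311) and Il1rn (3.41 ± 2.36, SD, n = 5 for each). Pycard exceeded Il1b in 3 of 5 vehicle libraries, Il18 exceeded Casp1 in 3 of 5 and Il10 exceeded Il1rn in 3 of 5, so these neighbours were not separated. Il1b was above Il1a, Il1a above Il18, and Il6 above Il10 in 5 of 5, while Casp1 was above Nlrp3 and Nlrp3 above Il6 in 4 of 5. With GW2580 the order was led by Il1b (72.0 ± 50.7), Il1a (63.2 ± 32.2) and Pycard (63.1 ± 45.2), of which Il1b exceeded Il1a in 2 of 5 and Il1a exceeded Pycard in 3 of 5 libraries. Casp1 (25.0 ± 9.64) was above Il18 (15.7 ± 7.43) in 5 of 5 GW2580 libraries. Nlrp3 (14.3 ± 5.42), Il6 (6.97 ± 1.71), Il1rn (4.72 ± 2.70) and Il10 (3.49 ± 0.996) followed, and Il1rn exceeded Il10 in 2 of 5.

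Ratios of 2 members within a library do not depend on how libraries are scaled, and 4 were compared after the values had been seen. The RPKM ratio of the protease to its adaptor, Casp1 to Pycard, was 0.230, 0.242, 0.229, 0.226 and 0.336 in Vehicle 1 to 5 and 0.679, 0.408, 0.593, 0.641 and 0.205 in GW2580 1 to 5. It was above every vehicle value in 4 of the GW2580 libraries and below them all in GW2580 5. The mean log2 ratio was higher by 0.90 with GW2580 (exact permutation p = 0.0476, p = 0.180 adjusted over the 4 ratios). The ratio of Il1a to Il1b was higher by 0.76 (exact permutation p = 0.111, adjusted p = 0.180), that of agonist to antagonist, Il1b to Il1rn, differed by -0.76 (exact permutation p = 0.135, adjusted p = 0.180), and that of Il18 to Il1b by -0.62 (exact permutation p = 0.333, adjusted p = 0.333) on the log2 scale.

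Since the highest Il1rn and Il1b values came from male mice, the sexes were compared as well, with treatment in the edgeR model. The exact permutation test of sex split all 10 libraries without regard to treatment. The comparison of the sexes was added after the values were seen. Il1rn was 18.6 ± 4.84 CPM in the 4 male mice (11.8 to 23.3 CPM) and 6.66 ± 2.45 CPM in the 6 female mice (3.99 to 11.0 CPM, SD). The sexes did not overlap, as was the case for 0.718% of all genes, and the log2 difference, male minus female, was 1.496 ± 0.312 (SE, edgeR p = 0.000325, adjusted p = 0.194, exact permutation p = 0.00476, the smallest that 210 splits allow). Il1b was 273 ± 177 CPM in males (117 to 514 CPM) and 89.7 ± 47.2 CPM in females (37.4 to 159 CPM), a log2 difference of 1.57 ± 0.52 (SE, edgeR p = 0.00963, adjusted p = 1, exact permutation p = 0.0286), with overlapping ranges. These 2 of the 9 genes met the fold and unadjusted p thresholds in this comparison, both higher in males, compared with 1.62% of all genes in either direction and 0.806% higher in males. At an adjusted p below 0.05 there were 0 of the 9 and 0.0915% of all genes. Without Vehicle 1, a male mouse, the difference was 1.31 for Il1rn and 1.07 for Il1b (edgeR adjusted p = 1.000 for both). Il1rn then met the thresholds and Il1b did not, and a share over all genes is not given for that fit. The other 7 had log2 differences from -0.56 (Nlrp3) to 0.49 (Il1a), none with an unadjusted edgeR p below 0.05. The effect of GW2580 did not pass the thresholds for a difference between the sexes in any of the 9, and did in 2.52% of all genes. In male mice alone (2 against 2) Il18 and Pycard were called, at log2 fold changes of -1.24 and -1.55 (edgeR adjusted p = 0.177 and 0.172), where 19.2% of all genes were.

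Il1b and Il1rn are also strongly expressed by neutrophils and monocytes, cells that carry CD11b. The summed monocyte and granulocyte markers were at 6535 to 30337 CPM in the male and at 1301 to 6367 CPM in the female mice. Over the 10 libraries, log2 CPM of Il1b correlated with the log2 of this sum at r = 0.85 (permutation p = 0.00216, adjusted over the 9 genes 0.0194) and rho = 0.81 (permutation p = 0.00788, adjusted 0.0666). The r was 0.66 without Vehicle 1 and Vehicle 5, the libraries farthest from the median, and 0.85 after removal of the treatment group means. For Il1rn, r was 0.74 (permutation p = 0.0156, adjusted 0.0702) and rho 0.76 (permutation p = 0.0148, adjusted 0.0666). The r of Il1rn was 0.56 without those 2 libraries and 0.80 after removal of the treatment group means. Sex was not removed from these correlations, and the permutations shuffled libraries across the sexes. The male libraries had both the highest marker sums and the highest Il1rn values, so the sum and sex cannot be told apart here. For Pycard and Casp1, r was 0.61 and 0.60, both with an adjusted permutation p of 0.146, and for Il1a, Il6, Il10, Il18 and Nlrp3 it lay between -0.41 and 0.47. GW2580 3 went apart from this relation, with 159 CPM of Il1b at a marker sum of 1902 CPM. Of the 16 markers, 1 was called with GW2580, Plac8 (log2 fold change -1.602, edgeR adjusted p = 0.283), and S100a9 ranged from 33.9 to 7991 CPM with vehicle and from 65.6 to 2139 CPM with GW2580. The part of these cells in the levels of Il1b and Il1rn was not tested.

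**Figure D3:**
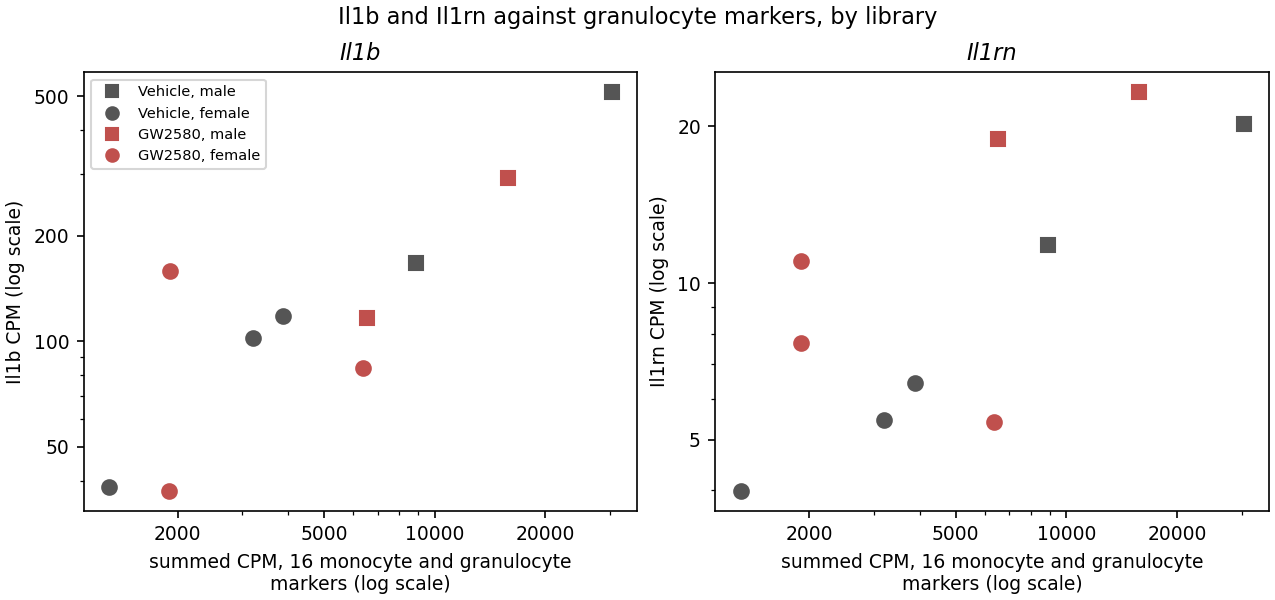
CPM of Il1b (left) and Il1rn (right) in each of the 10 libraries against the summed CPM of 16 monocyte and granulocyte markers, both axes on a log scale, grey for vehicle, red for GW2580, squares for male and circles for female mice. The 4 male libraries have the 4 highest marker sums, from 6535 CPM, and the 4 highest Il1rn values.

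Genes whose pattern over the 10 libraries was most like that of 3 members were found by the root mean square difference of centred log2 CPM, among 14792 genes with a mean over 5 CPM. Those nearest to Il1b were Lyz2 (0.338), Clec12a (0.378) and Plaur (0.411), where the median gene was at 1.26. Lyz2 encodes lysozyme, Clec12a a myeloid inhibitory lectin and Plaur the urokinase receptor. Nearest to Nlrp3 were Nufip2 (0.0872), Acbd3 (0.162) and Herc2 (0.197), against a median of 0.658, and nearest to Casp1 were Slamf6 (0.148), Terf1 (0.207) and Ing2 (0.232), against 1.14. Other members were not among the nearest. Il1rn ranked 83 and Casp1 106 for likeness to Il1b, and for likeness to Casp1 the nearest member was Il1a, at rank 459, followed by Pycard at 745.

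The receptors and partners of these cytokines were compared in lists around each step. Of all genes tested, 10.7% were called, and the calls in each list are read beside that share. Of the 14 genes of IL-1 and IL-18 reception, which include the receptors, the decoys and the MyD88 adaptor chain, 0 were called, and their median log2 fold change was 0.15. Myd88 was at 0.34 ± 0.38 (SE, edgeR adjusted p = 0.685) and Irak2, a kinase of that chain, at 0.73 ± 0.39 (SE, adjusted p = 0.390). Sigirr, a negative regulator of the IL-1 receptor family, had the lowest value, -0.94 (edgeR adjusted p = 0.363).

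Of 10 genes of TNF receptors and adaptors, 1 was called, against 10.7% of all genes. This was Tnfrsf1b, which encodes TNF receptor 2. It was at 128, 84.1, 121, 108 and 212 CPM with vehicle and at 365, 186, 659, 312 and 99.1 CPM with GW2580, so that 3 GW2580 libraries were above all vehicle libraries and GW2580 2 and 5 were within their range. The log2 fold change of Tnfrsf1b was 1.31 ± 0.47 (SE, edgeR p = 0.0147, adjusted p = 0.280, exact permutation p = 0.0714). The median of the list was 0.66, and Tnfrsf1a, which encodes TNF receptor 1, was at 0.64 ± 0.39 (SE, edgeR adjusted p = 0.451). Of the 9 genes of IL-6 and IL-10 reception, Il10ra, the ligand-binding chain of the IL-10 receptor, was called, with 274 ± 73.6 CPM for vehicle and 592 ± 378 CPM for GW2580 (SD, n = 5 each, log2 fold change 1.11 ± 0.44 SE, edgeR p = 0.0253, adjusted p = 0.291, exact permutation p = 0.0635). The median of this list was 0.43, and Stat3 and Socs3, which act downstream of both receptors, were at 0.95 and 0.72 (edgeR adjusted p = 0.305 and 0.438).

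Of the 14 further inflammasome genes, 0 were called, while 14 had a log2 fold change above 0, as did 13750 of the 28419 genes tested. Their median was 0.48, beside 0.49 for the microglia markers, and the part of a change in cell composition in this and the other related lists was not tested. Naip2, a sensor component for bacterial secretion proteins, was at 0.99 (edgeR adjusted p = 0.281) and Txnip, a binding partner of thioredoxin and NLRP3, at 0.95 ± 0.42 (SE, adjusted p = 0.317), both with an unadjusted p below 0.05 but short of 2-fold. Gsdmd, the pore former cleaved by caspase-1, was at 0.48 ± 0.37 (SE, edgeR adjusted p = 0.542). Of 12 NF-kB genes, Nfkbiz, a nuclear IκB protein, was called, at 215 ± 73.7 and 467 ± 256 CPM (SD, n = 5 each, log2 fold change 1.12 ± 0.42 SE, edgeR p = 0.0197, adjusted p = 0.281, exact permutation p = 0.0476), and Nfkbia, the classical inhibitor, was at -0.64 ± 0.54 (SE, adjusted p = 0.581). The list median was 0.47. For Tnfrsf1b, Il10ra and Nfkbiz, GW2580 3 was the highest library in TMM-scaled CPM, at 659, 1205 and 859. That library had the lowest TMM factor of all, 0.691, which raised its scaled values. With library size alone, the log2 fold changes of these genes were not smaller. They were 1.49, 1.27 and 1.26 in the same order, beside 1.31, 1.11 and 1.12 with TMM.

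Of 24 other cytokine genes, 17 passed the filter and 2 were called, both lower with GW2580 and both near the filter. Over all genes tested, 6.7% were called lower. Csf2, which encodes GM-CSF, was at 0.668 to 4.89 CPM with vehicle and 0.461 to 2.17 CPM with GW2580 (log2 fold change -1.27, edgeR p = 0.0452, adjusted p = 0.332, exact permutation p = 0.103). Ifng, interferon gamma, was at 1.55 to 6.12 and 0.389 to 1.95 CPM (-1.22, edgeR p = 0.0378, adjusted p = 0.316, exact permutation p = 0.0635). Both were highest in Vehicle 5, the library with the largest sum of 12 lymphocyte markers, 570 CPM against 132 to 177 CPM in the other vehicle libraries, and the part of lymphocytes was not tested. Of those 12 markers, 5 were called lower with GW2580, beside the 6.7% of all genes. Il16 was the most abundant tested, at 163 ± 23.2 and 272 ± 144 CPM (SD, n = 5 each), with a log2 fold change of 0.74 (edgeR adjusted p = 0.366). Lists were scaled by TMM. Library size alone moved the median of all genes from -0.03 to 0.23, and 10.5% of all genes were then called. In that setting the calls were 3 for TNF reception, 3 for IL-6 and IL-10 reception, 2 for the inflammasome, 1 for NF-kB and 0 for the other cytokines.

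**Figure D4:**
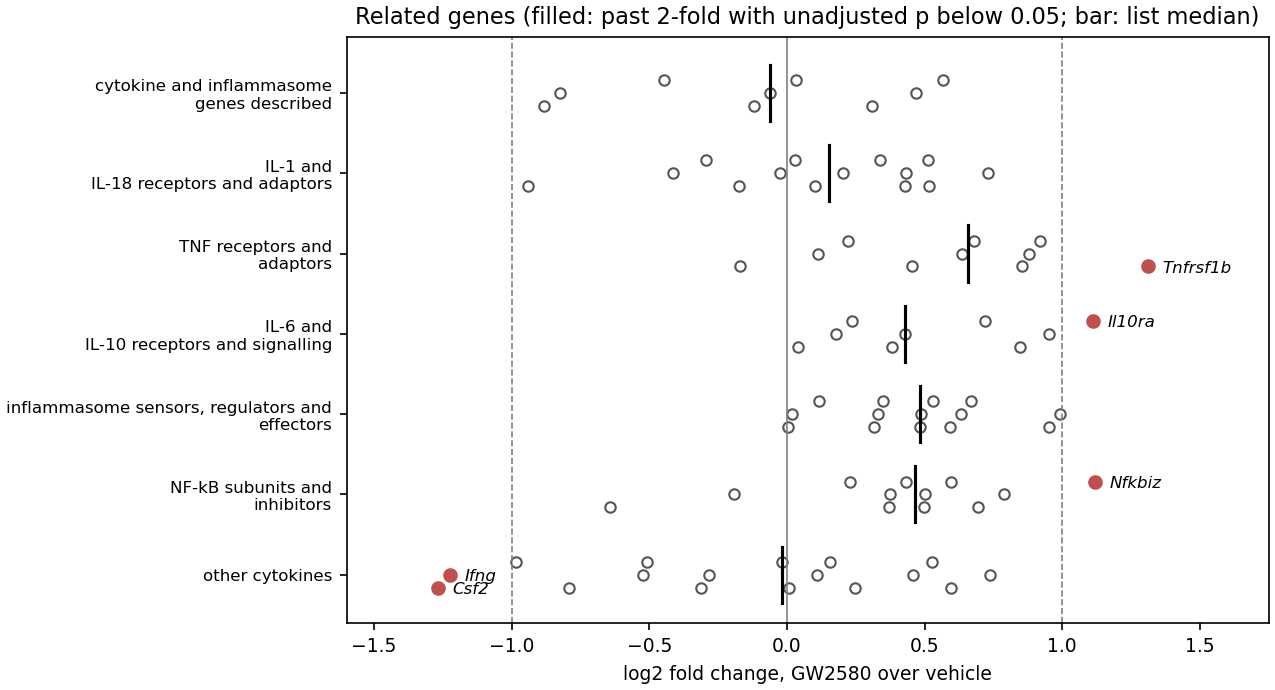
Log2 fold change of GW2580 over vehicle for the 9 cytokine and inflammasome genes tested and for the tested genes of 6 related lists, 1 point per gene (n = 5 libraries per group), filled and named where the fold change passed 2 with an unadjusted p below 0.05, with a bar at each list median. The called genes are Tnfrsf1b, Il10ra and Nfkbiz to the right and Csf2 and Ifng to the left, and none is in the first row.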

How the data were processed

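The authors trimmed 150-base read pairs, aligned them with STAR and counted uniquely aligned fragments on RefSeq exons without regard to strand. The deposited values are raw counts per gene, 1 table per mouse, and per the file headers were made with featureCounts 1.6.3 on GRCm38. Symbols came from the RefSeq GRCm38.p6 table, which held 46029 of 46152 genes. The authors also deposited gene lengths and a summary of unassigned fragments. An average of 34.6% of counting records with vehicle and 31.0% with GW2580 were assigned to genes, and the rest were left out. Replicates were separate mice.

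Genes over 1 CPM in at least 3 libraries were tested, with TMM scaling, by edgeR's quasi-likelihood method in a model of treatment alone (edgeR 4.0.16, limma 3.58.1, DESeq2 1.42.0 and R 4.3.3). p-values were adjusted by Benjamini and Hochberg over 28419 genes, and a call took the study's thresholds, a fold over 2 and an unadjusted p under 0.05. Log2 fold changes have standard errors and 95% intervals from that fit, which was tested on simulated data. Permutation tests were two-sided and exact over 252 splits of log2 CPM (prior count 2), or 210 for sex. Correlations used 100000 permutations (Python 3.11.15, scipy 1.17.1). RPKM was computed from TMM-scaled CPM and the listed gene length. All members were named, with at most 3 genes per other list, called ones first by p, then those of highest mean CPM. Naip2, Stat3 and Sigirr were added after their values were seen. The members and lists were chosen with earlier results of these data known. Alternatives were other tools, scalings, filters, prior counts and thresholds, sex, the replicate block, and leaving out libraries.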

Additional observations from a re-analysis of the deposited data

Results flagged for a closer look

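In 3 of the 18 sets of 5 values (9 genes in 2 groups), 1 library stood apart by Dixon's test on CPM. For independent, normally distributed values, chance does so in about 1 of 20 sets. The CPM were not log-transformed and the genes share libraries, so the 3 sets cannot be read against that rate. Il1b was at 514 CPM in Vehicle 1, where the next vehicle library was at 167 CPM. That library also had the highest sum of monocyte and granulocyte markers, 30337 CPM. Casp1 was at 6.12 CPM in Vehicle 5, where the nearest vehicle library was at 43.5 CPM, and Pycard was at 25.7 CPM in the same library, with the nearest at 271 CPM. Vehicle 5 had the lowest granulocyte sum, 1301 CPM, and the highest lymphocyte sum of all libraries, 570 CPM. The part of these cells in the values was not tested.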

How the results depend on the processing

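Beside the 0 of 9 genes called, the alternatives called 2 in male mice alone and 1 without Vehicle 2 and 5, and 0 under all other tools, scalings, filters and thresholds. Leaving out 1 library gave 0 to 2 calls, 1684 to 4848 calls over all genes (3046 with all libraries) and a median of the 9 from -0.22 to 0.07. The 2 calls came without Vehicle 5 (Il18 at -1.04 and Pycard at -1.18) and without GW2580 5 (-1.10 and -1.44), and the 1684 and 4848 came without GW2580 1 and without GW2580 5. Over all genes, calls numbered 4802 with no filter, 873 with over 5 CPM in at least 5 libraries, 4621 in males alone, 794 in females alone and 0 at an adjusted p under 0.05.

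The direction of Il1a, Il1rn, Il18, Nlrp3 and Pycard held in every alternative run. Il1b reversed without Vehicle 1 (0.36) and in females alone (0.12). With 1 library left out, Il1b ran from -0.92 to 0.36, Il6 from -0.22 to 0.090, Il10 from -0.087 to 0.10 and Casp1 from -0.40 to 0.074. The near-zero values of 3 genes also changed sign. Il10 was at -0.0022 with DESeq2, -0.0047 with limma-voom, -0.0037 with DESeq2 size factors, -0.012 with the replicate block, -0.0097 without Vehicle 3, -0.087 without GW2580 3, -0.013 without GW2580 4 and -0.14 in males alone. Casp1 was at 0.096 with limma-voom, 0.0045 with the block, 0.00095 without Vehicle 1, 0.074 without GW2580 4 and 0.13 in females alone, and Il6 at 0.15 with library size alone, 0.018 without Vehicle 4, 0.090 without GW2580 4 and 0.081 in males alone. The cause was not tested.

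Library size alone changed the calls of the related lists to 3 for TNF reception, 3 for IL-6 and IL-10 reception, 2 for the inflammasome and 0 for other cytokines. In that setting 10.5% of all genes were called. Without Vehicle 1, Il1rn still met the thresholds between the sexes and Il1b did not, with no share over all genes given for that fit.

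Same-numbered vehicle and GW2580 libraries shared a number and the sex of the mouse. Their deviations correlated at 0.080, 0.13, -0.055, -0.069 and -0.39, and 0 of 5 vehicle libraries correlated best with its own number. With the replicate block, which also takes up sex, 0 of the 9 genes and 2554 of all genes were called. Il1rn, Il6 and Il10 fell to 71, 78 and 39 fragments in their lowest libraries and carry more counting error than the abundant genes. Counts and intervals cover these 10 mice, and since no molecular identifiers were used, counting intervals would understate the error.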
